A study of Mus musculus with 48 samples.

Results

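The 7 libraries described here were made from heart cardiomyocytes of mice infused with angiotensin II together with VEGFCc156s (angII+VEGFC, n = 3) and of control mice (ctrl, n = 4), out of 48 libraries in the whole series. They were chosen by their labels alone, as the cardiomyocyte libraries of those treatment groups, and each library came from a different mouse. All mice were male and carried the Prox1-eGFP knock-in, an IRES-eGFP reporter placed behind the coding part of Prox1, on the C57BL/6 strain of the labels (C57BL/6J founders in the methods), so the controls carried it as well. Control mice received an osmotic minipump with bovine serum albumin, and the other group received angiotensin II, a vasoconstrictor peptide, plus VEGFCc156s, a mutant form of vascular endothelial growth factor C that acts through VEGFR3. Hearts were taken 5 to 6 weeks after implantation. The labels give the ages in months, 8, 9, 16 and 16 for the control mice and 8, 8 and 15 for the angII+VEGFC mice, and 8, 14, 14, 16 and 16 for the angII mice described below, whereas the methods of the study speak of weeks. The same study profiled cardiomyocytes of 5 mice given angiotensin II without VEGFCc156s (angII), and blood endothelial cells (BECs) and lymphatic endothelial cells (LECs) of the same hearts. The comparison asks how the cardiomyocyte fraction of hearts under angiotensin II plus the lymphatic growth factor differed from that of unchallenged hearts. It cannot separate the part of angiotensin II from that of VEGFCc156s.

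Angiotensin II raises blood pressure through its AT1 receptor and also acts on heart cells directly, and long infusion leads to cardiac hypertrophy and fibrosis. Adult ventricular cardiomyocytes under load typically re-express fetal genes such as the natriuretic peptides, shift away from fatty acid oxidation and lower the expression of several potassium and calcium handling proteins, while fibroblasts around them lay down matrix. VEGFR3, encoded by Flt4, is in adult tissue mainly a receptor of lymphatic endothelium.

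The cardiomyocytes were pelleted from digested hearts at 400 g for 3 minutes and washed, and no sorting step is described for them, so other heart cells could be carried along. The deposited values are TPM, the usual transcript abundance unit, which is scaled for gene length and library total, so differences here are shares of each library's RNA. A smaller number of cells of a type and less RNA per cell cannot be told apart in them. The markers of the fraction were high in every library. Myh6, the alpha myosin heavy chain, measured 2615, 2859, 2596 and 2002 TPM in ctrl 1 to 4 and 1678, 1911 and 1004 TPM in angII+VEGFC 1 to 3. The inhibitory troponin gene Tnni3 ranged from 3099.6 to 5251 TPM in the control libraries and from 1922 to 2518 TPM in the angII+VEGFC libraries. In BECs of the control hearts Myh6 averaged 10.8 ± 6.64 TPM (SD, n = 4). RNA of other cells was present as well: the 8 fibroblast markers summed to 6871 to 9019.6 TPM in ctrl and 8264 to 11034 in angII+VEGFC, and the 8 endothelial markers to 2116 to 2846 and 2445 to 3204 TPM.

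One library stood apart from the others. The third angII+VEGFC library had 19306 genes at 1 TPM or more, against 13226 and 13849 in the other angII+VEGFC libraries and 13020 to 14057 in ctrl. Its mean correlation with the other 11 cardiomyocyte libraries was 0.924, and the remaining libraries lay between 0.952 and 0.963. The first principal component placed it 2.31 SD from the mean. Its summed cardiomyocyte markers came to 8190.2 TPM, lower than in all 4 ctrl libraries (12266 to 18104), and those of the other angII+VEGFC libraries were 12282 and 15747. List counts below are therefore given with all libraries and, where the number of called members changes, without this one.

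Of 15691 genes tested, 104 differed between angII+VEGFC and ctrl at an adjusted p under 0.05 (0.663%), 61 of them higher (0.389%) and 43 lower (0.274%). Without adjustment, 2017 genes had a p under 0.05 (12.9%), 1279 higher and 738 lower. Among the genes with the largest rises were Igfbp2, Cthrc1 and Ccn5, which encode secreted proteins, and among those with the largest falls the atrial kinase gene Sbk3, the Wnt inhibitor gene Sfrp5 and the potassium channel gene Kcnj3. The called log2 fold changes ran from 0.82 to 3.71 upwards and from -1.15 to -3.34 downwards, and in all 104 genes the angII+VEGFC libraries did not overlap the ctrl libraries. Over all genes tested, 1442 (9.19%) lay higher without overlap and 750 (4.78%) lower. Of all genes, 61.9% had a positive log2 fold change, and the median was 0.11. List counts with all libraries below are to be read against these shares. Tests were moderated limma tests on log2(TPM + 1) over all 12 cardiomyocyte libraries with age as covariate, so fold changes of genes with low TPM are understated.

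**Figure D1:**
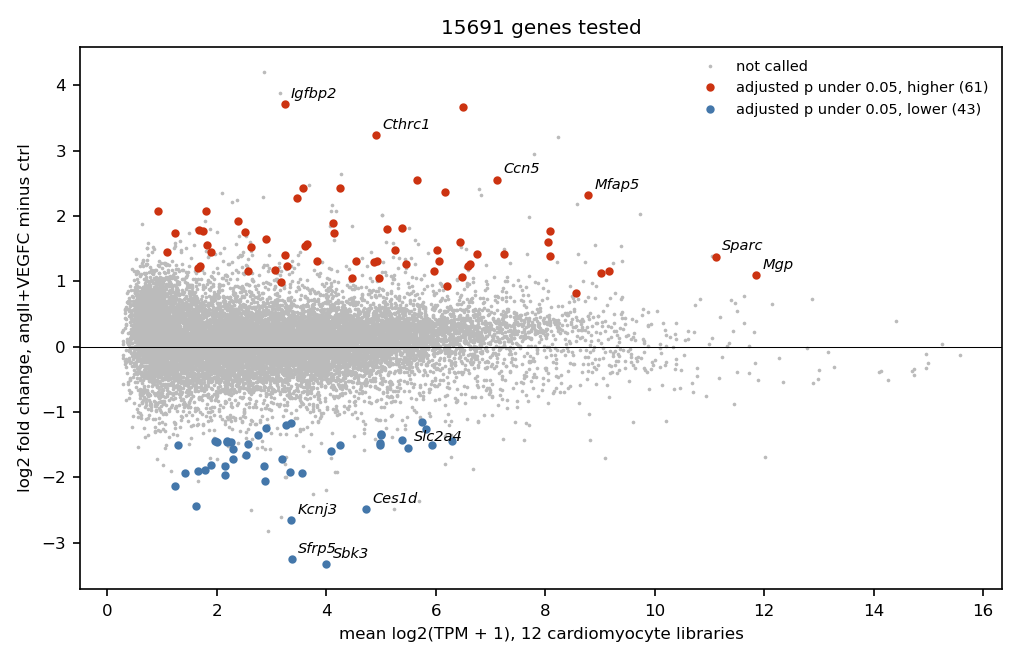
Log2 fold change of angII+VEGFC minus ctrl (vertical) against mean log2(TPM + 1) of the 12 cardiomyocyte libraries (horizontal), 1 point for each of the 15691 genes tested. The 61 called higher genes (red) and 43 called lower genes (blue) sit at the outer edge of the cloud over a wide range of expression.

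The number of genes called depended on single libraries. Without the third angII+VEGFC library 852 of 14910 genes tested passed, 723 higher and 129 lower, and these included all 104. The list counts without replicate 3 below are to be read against these totals. Without either of the other angII+VEGFC libraries, or without ctrl 2, no gene passed, and without ctrl 1, 3 or 4 the counts were 4, 5 and 9. In 50 of the 61 called higher genes the third angII+VEGFC library was the one nearest to ctrl, whereas in the 43 called lower genes this held for 23. The balance of the calls depended on the scaling of TPM, with 61 higher and 43 lower as deposited, 133 and 193 after quantile normalization, 74 and 112 after median ratio scaling and 132 and 12 after scaling to cardiomyocyte markers. All 33 called genes that are named below by rule kept their sign under every alternative in which they were tested.

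**Figure D2:**
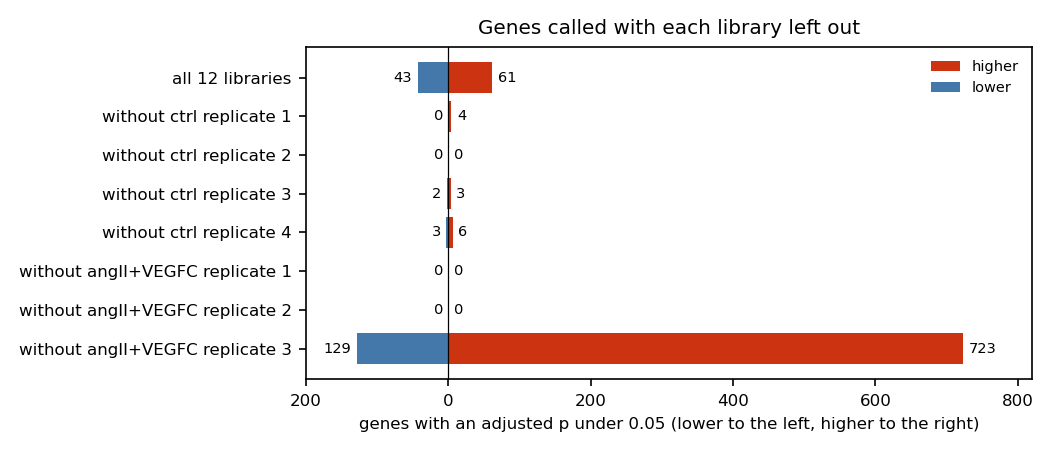
Number of genes with an adjusted p under 0.05 (horizontal; lower to the left in blue, higher to the right in red) with all 12 cardiomyocyte libraries and with each ctrl or angII+VEGFC library left out in turn. Leaving out angII+VEGFC replicate 3 gives 723 higher and 129 lower genes, and each other omission gives between 0 and 9.

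Igfbp2, which encodes an insulin-like growth factor binding protein, lies at chr1:72824503-72852474 (GRCm38, forward strand) and measured 2.83, 3.12, 0.419 and 0.215 TPM in ctrl 1 to 4 against 15.2, 20.95 and 99.1 TPM in angII+VEGFC 1 to 3. The lowest treated library was well above the highest control, and the third treated library was far above the rest. The mean rose from 1.65 ± 1.54 (SD, n = 4) to 45.1 ± 46.9 TPM (SD, n = 3), a log2 fold change of 3.71 (SE 0.64, adjusted p = 0.0264).

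Inhba encodes the beta A subunit shared by activin A and inhibin A, ligands of the TGF-beta family. Its TPM were 7.84, 6.26, 3.73 and 2.23 in ctrl and 54.4, 22.8 and 19.04 in angII+VEGFC, again without overlap, and it rose by 2.43 on the log2 scale (SE 0.46, adjusted p = 0.0321). Serpina3n, an acute-phase serine protease inhibitor, measured 14.4 to 17.3 TPM in ctrl and 176, 136 and 33.2 TPM in angII+VEGFC, with replicate 3 the nearest to ctrl (log2 fold change 2.55, SE 0.49, adjusted p = 0.0334). Rbp4, the plasma retinol carrier, Ereg, the EGF receptor ligand epiregulin, Ddah1, which degrades the nitric oxide synthase inhibitor asymmetric dimethylarginine, and Atp6v0a4, a proton pump subunit, were also among the 12 largest rises of genes with a full gene name, as were the first matrix genes described below. Their log2 fold changes were 2.28, 2.07, 2.42 and 1.92, with adjusted p of 0.0264, 0.0481, 0.0481 and 0.0321.

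**Figure D3:**
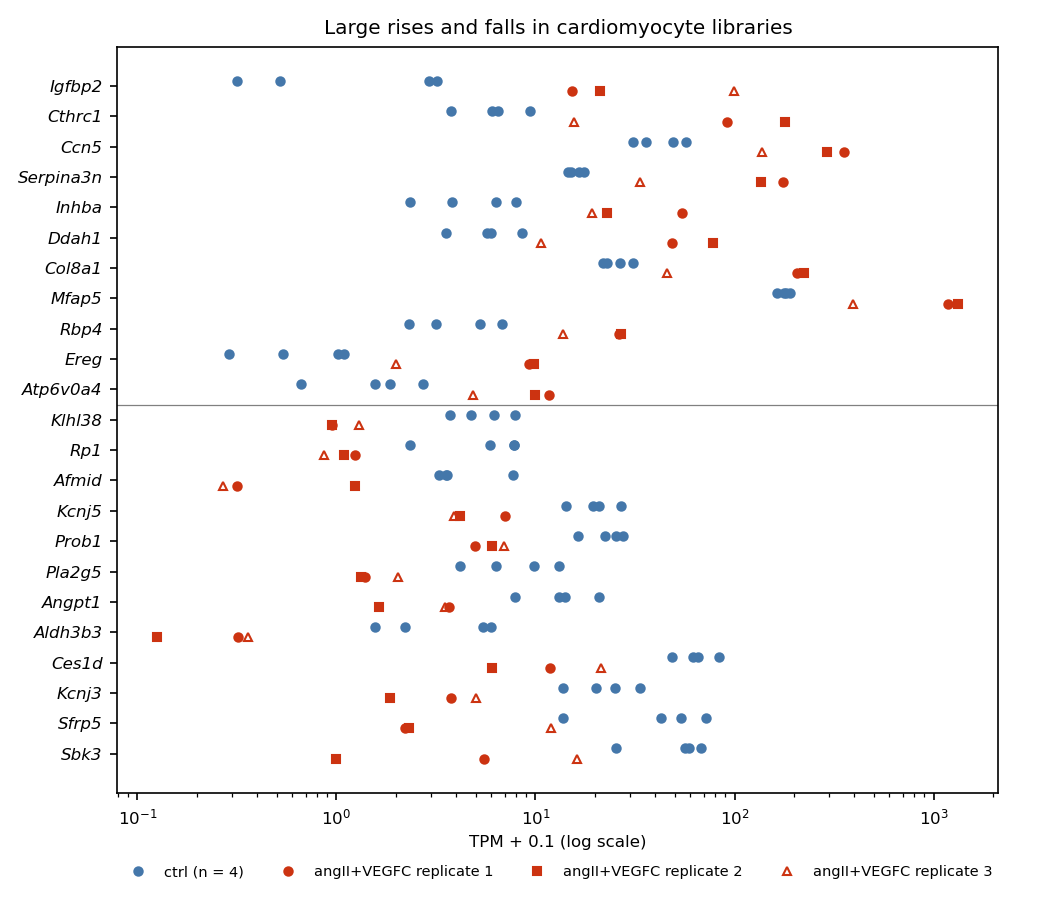
TPM + 0.1 on a log scale (horizontal) for genes among the 12 largest rises and for the 12 largest falls that were called, provisional gene names left out, with 1 blue point per ctrl library (n = 4) and 1 red mark per angII+VEGFC library. The genes were chosen from those without overlap, so the marks of both groups are separate in each. Replicate 3 (open triangle) lies closest to ctrl in most of the rises.

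The list of 36 matrix genes was written with earlier results of these data known. All 36 were measured and had positive log2 fold changes. At an adjusted p under 0.05, 6 rose, against 0.389% of all genes tested. An unadjusted p under 0.05 was found for 32, against 12.9% of all genes. The median log2 fold change of the list was 1.32, against 0.11 over all genes tested. Ccn5, a matricellular protein of the CCN family (chr2:163820861-163833146, forward strand), measured 57.2, 30.8, 36.02 and 48.9 TPM in ctrl and 354, 292 and 137 TPM in angII+VEGFC. Every treated library was above every control, and the mean went from 43.2 ± 12.04 (SD, n = 4) to 261 ± 111 TPM (SD, n = 3), with a log2 fold change of 2.56 (SE 0.33, adjusted p = 0.0114). Cthrc1, a secreted collagen triple helix repeat protein made by activated fibroblasts (chr15:39076932-39087121, forward strand), was at 9.27, 5.94, 3.66 and 6.36 TPM in ctrl and at 91.6, 179.6 and 15.5 TPM in angII+VEGFC. Replicates 1 and 2 were far above ctrl and replicate 3 was the nearest to the highest control, which gave 3.24 (SE 0.58, adjusted p = 0.0298) with all libraries and 4.17 without replicate 3.

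Col8a1, a short-chain collagen of vessel walls, rose and measured 21.6 to 30.7 TPM in ctrl against 205, 223 and 45.5 TPM in angII+VEGFC (log2 fold change 2.37, SE 0.41, adjusted p = 0.0264). The elastic microfibril genes Mfap5 and Mfap4 rose by 2.32 (SE 0.34, adjusted p = 0.0178) and 1.77 (SE 0.31, adjusted p = 0.0264). Sparc, a collagen-binding glycoprotein and the most abundant of the 6, measured 1423, 1329.5, 974 and 1251 TPM in ctrl and 3159, 5176 and 2299 TPM in angII+VEGFC. Its groups did not overlap, and its log2 fold change was 1.38 (SE 0.27, adjusted p = 0.0386). Postn and Ccn2, the matricellular proteins periostin and CTGF, did not pass, with log2 fold changes of 2.18 and 2.04 at adjusted p of 0.0528 and 0.0514. The fibrillar collagen gene Col3a1 gave 1.54 (adjusted p = 0.203) and the proteoglycan gene Bgn 1.28 (adjusted p = 0.0596).

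The matrix list was uneven across the treated libraries. Its median difference from the ctrl mean was 1.90 and 1.81 in angII+VEGFC 1 and 2 on the log2(TPM + 1) scale and 0.13 in replicate 3, where the single controls lay between -0.43 and 0.42. Replicate 3 therefore overlapped ctrl in this list as a whole. Without it, 34 of the 36 genes passed and the median was 1.81. The fibroblast markers moved with the list: their median difference was 0.68 and 0.66 in replicates 1 and 2 and -0.03 in replicate 3. Of these 8 markers, which share Mfap5, Col1a1 and Lum with the matrix list, 1 was called (Mfap5, against 4 without replicate 3), 7 had positive values, and the defining markers Pdgfra and Tcf21 had log2 fold changes of 0.21 and 0.24 (adjusted p = 0.773 and 0.682). None of the fibroblast markers was at 0, and their part in the matrix result was not tested.

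**Figure D4:**
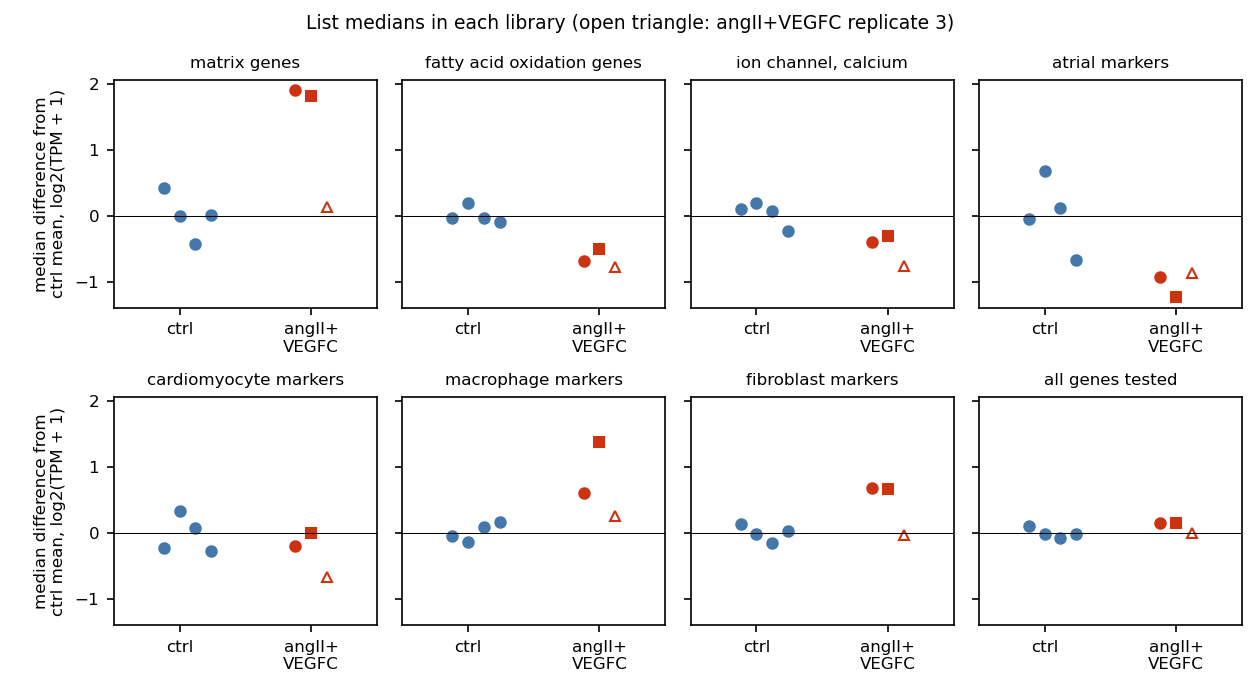
Median difference from the ctrl mean in log2(TPM + 1) (vertical) of gene lists in each ctrl library (n = 4) and each angII+VEGFC library (n = 3, open triangle for replicate 3). The matrix list is at 1.90, 1.81 and 0.13 in the treated libraries, whereas the fatty acid oxidation list is at -0.69, -0.51 and -0.77.

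Genes of growth factor signalling changed in few members. In the TGF-beta list, 18 of 19 genes were measured, Inhba alone was called, and the median log2 fold change was 0.44. The ligands Tgfb1 and Tgfb3 had values of 0.55 and 0.86 (adjusted p = 0.464 and 0.22) and the receptor Tgfbr2 0.29 (adjusted p = 0.733). Without replicate 3, 7 of the 18 were called higher. In the IGF list, 10 of 13 genes were measured and the binding proteins Igfbp2 and Igfbp6 were called higher (4 higher and 1 lower without replicate 3). Igfbp6, which binds IGF-II with high affinity, went from 109, 71.6, 80.8 and 94.2 TPM in ctrl to 299, 223 and 199 TPM, and all treated libraries were above all controls (log2 fold change 1.42, SE 0.25, adjusted p = 0.0264). Igfbp7 and Igfbp4 had values of 1.39 and 0.25 (adjusted p = 0.0987 and 0.703), and the ligand Igf2 had -1.15 (adjusted p = 0.123).

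None of the 10 VEGF pathway genes was called, and 1 had an unadjusted p under 0.05, against 12.9% of all genes tested. Without replicate 3, 1 of them was called higher, where 723 of all 14910 genes tested were. The list is therefore not read as changed. The VEGFR3 gene Flt4 had a log2 fold change of -0.15 (95% confidence interval -0.74 to 0.44), the VEGFR2 gene Kdr -0.33 (-0.98 to 0.31) and the ligand gene Vegfc 0.31 (-0.43 to 1.06). The second lymphatic ligand, Vegfd, had 1.06 (adjusted p = 0.183). Angpt1, which encodes the Tie2 ligand angiopoietin 1 and is not in that list, fell. It measured 13.1, 20.8, 14.0 and 7.83 TPM in ctrl and 3.60, 1.54 and 3.41 TPM in angII+VEGFC, so that the highest treated value was below the lowest control, with a log2 fold change of -2.06 (SE 0.41, adjusted p = 0.0386).

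Of 22 genes of the angiotensin, adrenergic, endothelin and natriuretic peptide pathways, 17 were measured, none was called and 12 had negative values. The angiotensin converting enzyme gene Ace stood at 0.98 (adjusted p = 0.227) and the AT1 receptor gene Agtr1a at -0.60 (adjusted p = 0.52). Angiotensinogen (Agt), the natriuretic peptide protease Corin, the alpha-1B adrenoceptor gene Adra1b and the clearance receptor gene Npr3 came nearest to the threshold. Their log2 fold changes were -1.73, -1.92, -1.40 and -1.51 at adjusted p of 0.0519, 0.0534, 0.0514 and 0.0659. Without replicate 3, 4 genes of this list were called lower and 1 higher.

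The strongest falls were in Sbk3 and Sfrp5, and 2 atrial potassium channel genes were among the 12 largest of genes with a full gene name. Sbk3, a kinase gene expressed mainly in atrial muscle (chr7:4965260-4971168, reverse strand), was at 59.2, 67.9, 56.3 and 25.2 TPM in ctrl 1 to 4 and at 5.42, 0.895 and 15.98 TPM in angII+VEGFC 1 to 3. The controls varied among themselves, with ctrl 4 the lowest, but the highest treated value was still below it. The log2 fold change was -3.34 (SE 0.71, adjusted p = 0.0481). Sfrp5, a secreted inhibitor of Wnt signalling (chr19:42197971-42202252, reverse strand), went from 71.7, 53.7, 13.6 and 42.6 to 2.11, 2.22 and 11.9 TPM, a log2 fold change of -3.25 (SE 0.55, adjusted p = 0.0264). Treated replicate 3, the highest of its group, came close to ctrl 3, the lowest control.

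Kcnj3 and Kcnj5 encode GIRK1 and GIRK4, the subunits of the acetylcholine-activated potassium channel of atrial and nodal cells. Kcnj3 measured 24.9, 33.5, 19.98 and 13.7 TPM in ctrl and 3.68, 1.76 and 4.91 TPM in angII+VEGFC, and Kcnj5 19.4, 26.6, 20.8 and 14.2 TPM and 6.93, 4.06 and 3.81 TPM. Both subunit genes were lower in every treated library than in any control. Kcnj3 had a log2 fold change of -2.65 (SE 0.57, adjusted p = 0.04999) and Kcnj5 one of -1.92 (SE 0.41, adjusted p = 0.0481).

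Among the 11 atrial markers, Sbk3 was the single call and 9 had negative values, with a median log2 fold change of -1.20. Over all genes tested, 0.274% were called lower and 61.9% had a positive value. Without replicate 3, 4 of them were called lower. Among the most abundant of the 11 markers, none of these 3 passed with all libraries. The atrial light chains Myl7 and Myl4 had -1.69 (adjusted p = 0.114) and -0.45 (adjusted p = 0.752), and Nppa, the atrial natriuretic peptide gene, 0.39 (adjusted p = 0.824). Myl7 was at 5624, 13202, 11373 and 5365 TPM in ctrl and at 2735, 1673 and 4511 TPM in angII+VEGFC, without overlap between the groups. The summed TPM of the 11 markers, in which Nppa weighs most, overlapped widely (18527 to 56028 in ctrl, 24130.0 to 40617 in angII+VEGFC, exact permutation p = 0.971). None of the 5 ventricular markers measured was called, and their median was -0.04. How much atrial tissue went into each preparation is not given in the sources used here, so atrial cells and RNA per atrial cell cannot be told apart.

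Ion channel and calcium handling genes, a list that shares Kcna5 with the atrial markers, had mostly negative values. Of 29 genes 26 were measured, 22 had negative values, and Kcnk3 and Hrc fell, while the median was -0.51. Over all genes tested, 0.274% were called lower and 61.9% had a positive value. Without replicate 3, 5 of them were called lower. Hrc, the histidine-rich calcium binding protein of the sarcoplasmic reticulum, measured 40.03, 56.1, 51.7 and 42.1 TPM in ctrl and 14.4, 21.03 and 20.98 TPM in angII+VEGFC. Its treated values were tightly grouped at a level well below every control, with a log2 fold change of -1.34 (SE 0.23, adjusted p = 0.0264). Kcnk3, the background potassium channel TASK-1, went from 33.1, 35.5, 41.2 and 16.5 to 8.10, 14.7 and 10.3 TPM (-1.51, SE 0.32, adjusted p = 0.04999), where ctrl 4 lay close to the second treated library.

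Atp2a2, the sarcoplasmic reticulum calcium pump SERCA2, was at 1324, 855, 1432 and 477 TPM in ctrl and at 279, 428 and 266 TPM in angII+VEGFC. All treated libraries were below all controls, and its log2 fold change of -1.70 did not pass (SE 0.45, adjusted p = 0.106). The hERG channel gene Kcnh2 (-1.70, adjusted p = 0.0563) and the inward rectifier gene Kcnj12 (-1.57, adjusted p = 0.0546) did not pass either, whereas the calcium release channel gene Ryr2 had 0.04 (95% confidence interval -0.46 to 0.54) and the SERCA2 inhibitor gene Pln -0.59 (adjusted p = 0.393). Cacna1h, a T-type calcium channel chosen for mention after its values were seen, fell, with a log2 fold change of -1.47 (SE 0.29, adjusted p = 0.0402).

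Genes of fatty acid oxidation had negative values almost throughout, and 1 passed with all libraries and 3 without replicate 3. All 32 were measured and 31 had negative values. An unadjusted p under 0.05 was found for 22, against 12.9% of all genes tested. In 23 the treated libraries lay below the controls without overlap, against 4.78% of all genes tested. The list was written with earlier results of these data known. The median log2 fold change was -0.75, and the list's median difference from the ctrl mean was -0.69, -0.51 and -0.77 in angII+VEGFC 1 to 3 against -0.10 to 0.20 in the controls. In contrast to the matrix list, replicate 3 was here the lowest library. Pdk4, the kinase that shuts off pyruvate dehydrogenase when fat is burned, was the member that fell. It measured 53.9, 86.6, 30.7 and 39.8 TPM in ctrl and 20.4, 26.5 and 14.9 TPM in angII+VEGFC, with ctrl 3 only slightly above the highest treated library (-1.50, SE 0.32, adjusted p = 0.0481).

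The thiolase gene Acaa2 (-1.17, adjusted p = 0.0563), the coactivator gene Ppargc1a (-1.45, adjusted p = 0.0694) and the muscle carnitine palmitoyltransferase gene Cpt1b (-1.26, adjusted p = 0.157) did not pass with all libraries. The lipid carriers Fabp3 and Cd36, the most abundant members, had -0.19 and -0.28 (adjusted p = 0.803 and 0.68). The median difference of the cardiomyocyte markers was -0.20, -0.01 and -0.66 in angII+VEGFC 1 to 3 against -0.27 to 0.33 in the controls. By that median, replicate 3 alone lay below the controls. Of the 8 markers, 4 had positive and 4 negative log2 fold changes. Myh6 and Tnni3 were the 2 that lay below every control in all treated libraries, against 4.78% of all genes tested. The summed TPM of the markers ranged from 12266 to 18104 in ctrl and from 8190.2 to 15747 in angII+VEGFC. After scaling each library to those markers other than Nppb, no fatty acid oxidation gene and no ion channel gene passed and their medians were -0.36 and -0.16, against a median of 0.43 over all genes on that scale. Hrc, Kcnk3, Pdk4, Slc2a4, Prox1, Prob1, Rp1 and Klhl38, all called lower on the deposited scale, did not pass there, with log2 fold changes from -0.96 to -1.63 and adjusted p from 0.053 to 0.134. The matrix list had 17 calls and a median of 1.68 on the same scale.

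Glucose metabolism was mixed. Slc2a4, the insulin-responsive glucose transporter GLUT4, fell, measuring 66.9, 83.5, 78.7 and 62.8 TPM in ctrl and 22.2, 23.6 and 29.3 TPM in angII+VEGFC. All treated libraries were at less than the lowest control (-1.55, SE 0.30, adjusted p = 0.0368). It was the only call among 22 measured genes of 23, of which 7 were positive and 15 negative (median -0.16), and without replicate 3 the calls were 2 higher and 1 lower. The most abundant, the glycolytic enzymes Aldoa and Gapdh, had -0.10 (95% confidence interval -0.66 to 0.47) and -0.03 (-0.63 to 0.57). Further enzymes among the 12 largest falls of genes with a full gene name were Ces1d, a carboxylesterase that hydrolyses stored triglyceride, the aldehyde dehydrogenase gene Aldh3b3, the secreted phospholipase gene Pla2g5 and the formamidase gene Afmid of tryptophan breakdown. Ces1d was at 65.7, 83.1, 61.96 and 48.6 TPM in ctrl and 11.7, 5.93 and 21.1 TPM in angII+VEGFC (-2.49, SE 0.38, adjusted p = 0.0241). Aldh3b3, Pla2g5 and Afmid fell, with log2 fold changes of -2.13, -1.97 and -1.91 (adjusted p = 0.0418, 0.0178 and 0.0321), where ctrl 1 stood apart for Afmid at 7.63 TPM. Prob1, Rp1 and Klhl38, the last a kelch protein of striated muscle, were also among those 12, with -1.94, -1.89 and -1.81 (adjusted p = 0.0481, 0.0481 and 0.0452).

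**Figure D5:**
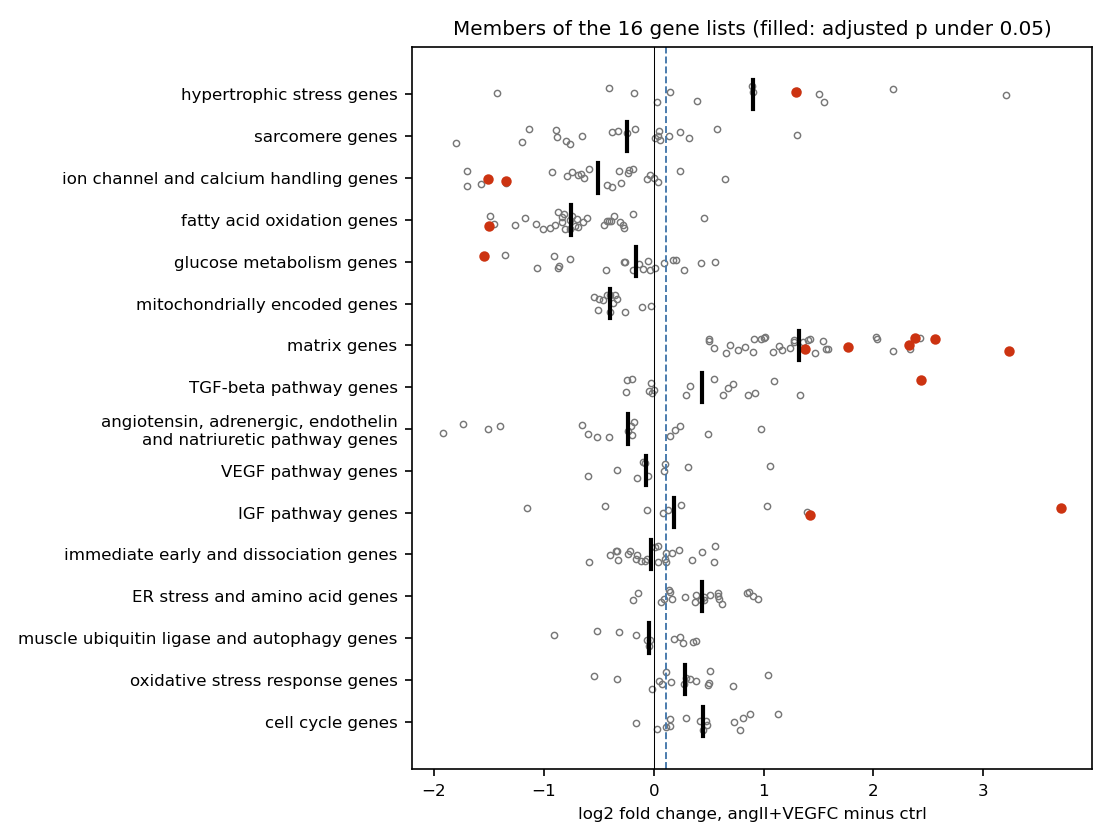
Log2 fold change of angII+VEGFC minus ctrl (horizontal) of each measured member of 16 gene lists, filled where the adjusted p was under 0.05, with the median of each list and a dashed line at 0.11, the median of all genes. All 36 matrix genes lie right of 0 and 31 of 32 fatty acid oxidation genes left of it. The lists were written with earlier results of these data known.

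Genes of hypertrophic stress had mostly positive values, of which few passed. Of 14 stress genes 11 were positive with a median of 0.90, and 1, Uchl1, was called. Over all genes tested, 61.9% were positive and 0.389% were called higher. Uchl1, a deubiquitinase of neurons and stressed muscle, measured 18.4, 12.01, 13.5 and 21.9 TPM in ctrl and 38.05, 44.7 and 36.97 TPM in angII+VEGFC, which were close together and above all controls (1.29, SE 0.22, adjusted p = 0.0264). Nppb, the brain natriuretic peptide gene and one of the markers of the fraction, was at 365, 563, 144 and 147 TPM in ctrl and at 1349, 1679 and 223 TPM in angII+VEGFC. Replicate 3 lay inside the control range and the other treated libraries far above it, so that the log2 fold change was 1.55 (SE 0.69, adjusted p = 0.354) with all libraries and 2.47 (adjusted p = 0.019) without replicate 3. Acta1, skeletal alpha actin, a fetal gene of the heart, was at 44.8, 126, 33.1 and 229 TPM in ctrl and 335, 3531 and 299 TPM in angII+VEGFC. All treated libraries were above all controls, the second by far the most, but it did not pass (3.20, SE 0.87, adjusted p = 0.119). Without replicate 3, 7 of the 14 were called higher.

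No gene of the 21 sarcomere genes was called, with 9 positive and 12 negative values and a median of -0.24. Myh6 had -0.76 (SE 0.34, adjusted p = 0.356) and Tnni3 -0.88 (SE 0.28, adjusted p = 0.182). The thin filament genes Actc1 and Tpm1 had 0.06 (95% confidence interval -0.76 to 0.89) and 0.01 (-0.72 to 0.74). The cardiac myosin light chain kinase gene Mylk3 and nebulette (Nebl) had the lowest values, -1.80 and -1.20 (adjusted p = 0.0798 and 0.0874). The 13 mitochondrially encoded genes of the list were all negative, with a median of -0.39 and none at an unadjusted p under 0.05. Their summed TPM ran from 216556 to 268147 in ctrl and was 200541, 134488 and 244849 in angII+VEGFC 1 to 3. All mitochondrially encoded genes, a wider set than these 13, took up 29.3, 25.1, 28.8 and 31.02% of TPM in ctrl and 22.9, 16.02 and 28.3% in angII+VEGFC.

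Markers of macrophages had a higher sum in the cardiomyocyte libraries of treated mice, which did not pass after adjustment. The 14 markers, 12 of which were measured, summed to 667, 714, 839 and 875 TPM in ctrl and 1227, 2268 and 1037 TPM in angII+VEGFC, so every treated library exceeded every control. The exact permutation test gave p = 0.0286, the smallest that 35 labellings allow, and 0.243 after adjustment over 17 library measures. No single marker was called with all libraries and 5 were called higher without replicate 3. With all libraries 10 of the 12 measured markers had positive and 2 had negative log2 fold changes, the lowest at -0.71. The unmeasured markers of the list were too low to be tested. The complement genes C1qa and C1qb had 1.07 and 1.02 (adjusted p = 0.106 and 0.0959). Among the 61 called higher genes were, however, the macrophage genes Trem2, Ms4a7 and Fcrls, picked out here after their values were seen, with log2 fold changes of 1.40, 1.89 and 1.73 (adjusted p = 0.0264, 0.0386 and 0.0264). Trem2, a lipid-sensing receptor of macrophages, was at 4.21, 5.13, 3.10 and 4.77 TPM in ctrl and at 12.8, 15.4 and 12.9 TPM in angII+VEGFC. Macrophage number and RNA per macrophage cannot be told apart, and the part of either in the other rises was not tested.

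Skeletal muscle markers were also above the controls as a sum, which went from 7.42, 9.59, 10.2 and 5.92 TPM in ctrl to 73.5, 19.7 and 21.7 TPM in angII+VEGFC (exact permutation p = 0.0286, adjusted 0.243). Fast troponin T, Tnnt3, made up much of it at 0.601, 0, 0.862 and 0.234 TPM in ctrl and 58.4, 14.5 and 7.76 TPM in angII+VEGFC, with a log2 fold change of 4.21 that did not pass (adjusted p = 0.0559). Of the 8 markers 4 were measured, and 2 of these had positive and 2 negative log2 fold changes. Without replicate 3, 1 of these 4 was called higher. The fast myosin genes Myh1, Myh2 and Myh4, which define skeletal fibres, were at or near 0 in all these libraries and were not tested. No marker of the smooth muscle, erythroid, epicardial, adipocyte or Schwann cell lists was called. Their sums overlapped between the groups, with 9857 to 20377.5 TPM in ctrl and 13536 to 24892 TPM in angII+VEGFC for the erythroid list, 998 to 1819 and 1263 to 2129.9 TPM for the smooth muscle list, 0.972 to 6.12 and 5.33 to 27.7 TPM for the adipocyte list and 11.5 to 20.8 and 6.40 to 16.2 TPM for the Schwann cell list.

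Prox1, the locus of the reporter and a transcription factor of lymphatic endothelium that cardiomyocytes also express, fell. It measured 5.87, 6.18, 4.68 and 3.04 TPM in ctrl and 1.44, 0.867 and 1.47 TPM in angII+VEGFC, without overlap, with a log2 fold change of -1.45 (SE 0.27, adjusted p = 0.0321). In sorted LECs of the same hearts its mean was 176 ± 32.4 TPM in ctrl (SD, n = 4) and 189 ± 18.9 TPM in angII+VEGFC (SD, n = 3). No other lymphatic marker in the cardiomyocyte libraries was called: Pdpn had 0.60 (adjusted p = 0.391), and Lyve1, Mmrn1 and Ccl21a had 0.10, -0.08 and -0.10 (adjusted p = 0.911, 0.941 and 0.937), and the 6 markers summed to 101 to 197 TPM in ctrl and 96.2 to 195 in angII+VEGFC.

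Stress and growth lists had few or no calls. Their counts of positive values stand against 61.9% of all genes tested. None of the 24 immediate early and dissociation stress genes was called, with 12 positive and 12 negative values and a median of -0.02. Fos had -0.16 and Junb 0.04. Of 22 endoplasmic reticulum stress genes 20 were positive (median 0.44) and none was called. The chaperone genes Hspa5 and Hsp90b1 had 0.43 and 0.45 (adjusted p = 0.668 and 0.454). The 15 cell cycle genes had 14 positive values and no call (median 0.45), the 16 measured oxidative stress genes 13 positive and no call (median 0.28), and the 12 ubiquitin ligase and autophagy genes 5 positive and no call (median -0.04). Without replicate 3, 6 endoplasmic reticulum stress genes, 2 immediate early genes, 1 oxidative stress gene and 1 ubiquitin ligase or autophagy gene were called higher. Over all genes, 723 of 14910 tested were called higher in that setting. The lists with 1 or 2 such calls are not read as changed.

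The cardiomyocytes of mice given angiotensin II without VEGFCc156s were compared with the same 4 controls, so both comparisons share those libraries and only their own values are set side by side. Ccn5 had a log2 fold change of 2.56 in angII+VEGFC and of 2.52 (adjusted p = 0.00513) in angII, and Cthrc1 had 3.24 and 3.07 (adjusted p = 0.042). Inhba had 2.43 and, in angII, 1.17 (adjusted p = 0.308), with TPM of 6.83 to 23.6 in the 5 angII libraries. Sbk3 and Kcnj3 had -3.34 and -2.65 against -1.92 and -1.17 in angII (adjusted p = 0.271 and 0.45). The median of the matrix list was 1.32 in angII+VEGFC and 1.28 in angII, that of the fatty acid oxidation list -0.75 and -0.34, and that of the atrial markers -1.20 and -0.66. No test of the difference between the treatments is given here.

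The change in cardiomyocytes was also set against that in endothelial cells of the same hearts, with limma applied to each mouse's difference between the populations. No gene of 22246 passed for BECs (1909 at an unadjusted p under 0.05, smallest adjusted p 0.196) and none of 27486 for LECs (2139, smallest adjusted p 0.0677). For Cthrc1 the change was greater in cardiomyocytes than in BECs by 2.91 on the log2 scale (adjusted p = 0.231), and for Igfbp2 by 2.95 (adjusted p = 0.31). No rise or fall was thus shown to be particular to the cardiomyocyte fraction.

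Promoter sequences of the called genes were searched for motifs of factors known in heart muscle and fibrosis. RefSeq promoters (250 bases before to 50 after the start, GRCm38.p6) were matched for 65 of the 104 called genes, 42 higher and 23 lower. Only the 250 bases before the start were searched, on both strands. The AP-1 motif TGANTCA occurred in 7.14% of the higher and in 0.0% of the lower promoters, against 6.87% of all 27025, and the TEAD motif CATTCC in 7.14% and 8.7%, against 12.6%. The GATA motif AGATAA was found in 11.9% and 13.0%, against 10.3%, and the nuclear receptor motif AGGTCA in 9.52% and 8.7%, against 13.8%. The MEF2 motif occurred in 2 higher promoters and no lower one (3.01% of all), and the CArG box of serum response factor in no higher promoter and 2 lower ones (1.4% of all). These shares rest on few promoters and a match is a description, neither a bound site nor a cause. Of the sequences, 5 are shown, each a 60-base window upstream of the RefSeq start, read in the direction of the gene with the motif in capitals: Inhba (MEF2, chr13:16011730-16011789, forward strand) and Srpx2 (AP-1, chrX:133908339-133908398, forward strand) among the genes that rose, and Hopx (CArG box, chr5:77115172-77115231, reverse strand), Sfrp5 (GATA, chr19:42202443-42202502, reverse strand) and Pdk4 (GATA, chr6:5496307-5496366, reverse strand) among those that fell.
Inhba: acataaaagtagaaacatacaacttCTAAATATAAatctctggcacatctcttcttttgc
Srpx2: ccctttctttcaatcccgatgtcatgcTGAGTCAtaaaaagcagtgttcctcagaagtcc
Hopx: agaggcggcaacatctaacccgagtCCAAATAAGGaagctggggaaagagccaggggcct
Sfrp5: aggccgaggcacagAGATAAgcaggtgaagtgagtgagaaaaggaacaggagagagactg
Pdk4: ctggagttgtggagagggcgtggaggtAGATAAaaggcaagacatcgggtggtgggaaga
Srpx2, a secreted sushi-repeat protein, rose with a log2 fold change of 1.81 (adjusted p = 0.0321) and Hopx, a homeodomain-only regulator of serum response factor, fell with -1.45 (adjusted p = 0.0368). Both are named for these matches, after their values were seen.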

How the data were processed

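Cardiomyocyte RNA (2 ng) was made into libraries by the authors with a Smart-Seq ultra low input kit and Nextera XT. Per the submitters' processing notes and the study's methods, reads were handled with STAR 2.5.3a and Salmon 0.12.0 on GRCm38 (Ensembl release 95). The deposited TPM matrix (54752 genes, 54723 with a symbol) is scaled to the same total in each library and so keeps no depth. Columns were assigned by title, and all cardiomyocyte libraries belong to sequencing batch 3.

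Genes with at least 1 TPM in 3 or more of the 12 cardiomyocyte libraries were tested on log2(TPM + 1) by limma (3.58.1, R 4.3.3) with a trend of variance on mean, over ctrl, angII and angII+VEGFC together with age as covariate, and Benjamini-Hochberg adjustment at 0.05 over all genes. Differences from heart BECs or LECs were fitted on each mouse's difference in log2(TPM + 1) between the populations, with age and the batch of the endothelial library as covariates. Library measures were compared by exact two-sided permutation tests over all 35 labellings (Python 3.11.15). These p-values reflect the spread between mice, as each library bears its own animal number. Genes with overlapping or near-identical partners (Afmid and Tk1, Prob1 and Spata24, Prox1 and its antisense, Uchl1 and its antisense, Acta1 and other actins, Sbk3 and Sbk2) may share reads, since strand is not stated.

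Named genes were the 12 largest rises and 12 largest falls among called genes with no overlap, leaving out provisional names (Gm and a number, or ending in Rik), called members and the 4 most abundant members of each list, and Myh6, Tnni3 and Nppb, some of which are not reported here. Other genes were chosen after their values were seen. The libraries, lists and rules were chosen with earlier results of these data known. The fitting code was tested on simulated data. Alternatives covered the pseudocount, filters, covariates, scaling, the variance trend and each library left out. Scaling to cardiomyocyte markers was chosen after seeing the data.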

Additional observations from a re-analysis of the deposited data

Results flagged for a closer look

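For 53 genes and library measures, the values of the 4 ctrl libraries were examined for a library far from the others. Such a library was found for 3 of the 53, and chance alone marks about 1 in 20 of independent sets. The haemoglobin and erythroid measures below count largely the same transcripts, so the 53 are not independent. Afmid, which fell in angII+VEGFC, was at 7.63 TPM in ctrl 1 and between 3.19 and 3.50 TPM in the other controls. Haemoglobin genes took 2.03% of TPM in ctrl 3 and 0.983 to 1.13% in the other controls, and the erythroid markers of the same library summed to 20378 TPM (20377.5) against 9857 to 11367. In angII+VEGFC the haemoglobin share ranged from 1.35 to 2.48%, so ctrl 3 lay inside that range.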

How the results depend on the processing

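The count of 104 called genes (61 higher, 43 lower) became 91 with a pseudocount of 0.1, 116 with a mean of at least 5 TPM and 109 without covariates. It was 144 (132 higher, 12 lower) with scaling to the cardiomyocyte markers, an alternative chosen after seeing the data. These 4 sets held 89, 78, 85 and 64 of the 104 genes. The count became 0 of 44447 genes without a filter on low values (3074 at an unadjusted p under 0.05) and 9 without the variance trend. Fitting only the 2 groups compared gave 30 (7 higher, 23 lower), of which 21 were among the 104. The count became 524 with a surrogate variable and 769 (656 higher, 113 lower) when each library's count of detected genes (at 1 TPM or above) was a covariate. With other scalings more calls were lower: 326 genes (133 higher, 193 lower) passed after quantile normalization, 186 (74 higher, 112 lower) after median ratio scaling and 188 (79 higher, 109 lower) without mitochondrially encoded and haemoglobin genes, against 61 and 43 as deposited. The median of all genes moved from 0.11 to 0.01, 0.02, 0.06 and, with marker scaling, 0.43. Leaving out 1 library gave 0 to 852 genes here, 0 to 8 for the difference from BECs and 0 to 4 for that from LECs.

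Of 33 called genes named by rule, those still called numbered 27 with a pseudocount of 0.1, 26 of the 26 tested with a mean of at least 5 TPM, 25 without covariates, 0 without a filter, 32 after quantile normalization, 12 with only the groups compared, 4 without trend, 25 with marker scaling, and 0 to 6 when a library other than angII+VEGFC 3 was left out. No gene reversed. The difference of summed markers (angII+VEGFC minus ctrl, in TPM) changed sign when a library was left out for lymphatic (-0.903 with all, from -25.5 to 24.1), atrial (-619.8 with all, from -5685 to 6815), ventricular (from -429 to 922), smooth muscle (from -83.1 to 351) and epicardial markers (from -2.19 to 9.95), and for the count of detected genes (from -15.0 to 3025). The cause was not tested. No paired analysis was possible because the angII+VEGFC and ctrl libraries come from separate mice and their replicate numbers pair nothing between treatments. Only the comparison with endothelial cells used differences within a mouse. TPM keep no read depth, so no counting error can be given.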

Other observations

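Called genes outside the lists included further secreted and connective tissue genes among those that rose, chosen here after their values were seen. Mgp, the matrix Gla protein that inhibits calcification, had a log2 fold change of 1.09 (adjusted p = 0.0424), the gelatinase Mmp2 1.39 (adjusted p = 0.04999), the collagen-degrading cathepsin Ctsk 1.31 (adjusted p = 0.0383) and the small proteoglycan Aspn 1.60 (adjusted p = 0.0424). The calcium-binding genes S100a4 and S100a6 rose with log2 fold changes of 1.48 and 1.15 (adjusted p = 0.0264 and 0.0264). Mmp2 was at 186, 144, 125 and 145 TPM in ctrl and at 547, 464 and 239 TPM in angII+VEGFC.

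Among those that fell, Pcp4, a calmodulin-binding peptide of conduction tissue, had -1.46 (adjusted p = 0.0481), Dhrs7c, a sarcoplasmic reticulum dehydrogenase, -1.36 (adjusted p = 0.0481), and Rnf207, a ubiquitin ligase that acts on the hERG channel, -1.72 (adjusted p = 0.0264). Dhrs7c measured 46.8, 70.1, 48.9 and 43.2 TPM in ctrl and 13.3, 29.3 and 26.6 TPM in angII+VEGFC. Of the 104 called genes, 13 carried only a provisional gene name.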
